A study of Mus musculus with 2 samples.

Results

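The myeloid CC and CXC chemokines examined here are 9 genes, Ccl2, Ccl3, Ccl4, Ccl5, Ccl6, Ccl9, Ccl24, Cxcl2 and Cxcl16. They were found by their symbols among the 26124 genes of the deposited count matrices, and each symbol named 1 gene. Chemokines are small secreted proteins that bind G-protein-coupled receptors on leukocytes and set the direction in which those cells migrate. The CC and CXC families are named for the spacing of the first cysteines of the protein. In the spleen, chemokines made by macrophages, monocytes and dendritic cells (DCs) draw in further monocytes, neutrophils and lymphocytes, and several of these genes are switched on within minutes to hours of a stimulus while others are made steadily.

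The data are 2 droplet single-cell RNA-seq libraries from mouse spleen, each of cells that were freed of mature erythrocytes by lysis and enriched with magnetic beads carrying an antibody to F4/80, a macrophage surface protein. The mouse labelled wild-type was homozygous for Hbatm1Paz, heterozygous for Hbbtm1Tow and hemizygous for Tg(HBA-HBBs)41Paz, and the mouse labelled SCD (sickle cell disease) was homozygous for all 3. As labelled, both lacked the mouse alpha-globin genes and carried the human sickle transgene. The mouse labelled wild-type was thus a control of that line rather than a mouse with unaltered globin genes. The mice were 12 to 16 weeks old and untreated. Each condition was 1 mouse and 1 library, so no test between conditions was possible, and intervals given below are exact 95% intervals of the UMI or cell counts that cover counting error only.

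After filtering, 19418 of 24144 barcodes and 107315865 UMIs (unique molecular identifiers, 1 for each captured RNA molecule) were kept in the library labelled wild-type, and 12279 of 15442 barcodes and 64890040 UMIs in the library labelled SCD. The median kept cell held 4115 and 4571 UMIs. The libraries shared 107 barcodes. The check of the labelled genotype went against the labels: Hbb-bs, the adult mouse beta-globin gene whose locus the Hbbtm1Tow allele removes, had a level of 136 CPM (counts per 1000000 UMIs of the same cells) in erythroid-like cells under the wild-type label and of 61417 CPM in erythroid-like cells under the SCD label. Hbb-bt, its neighbour in the same locus, was at 232 and 18856 CPM. Hba-a1, a mouse alpha-globin gene that both mice lacked by their labels, was among the 10 leading genes of cluster 14. That cluster held 1138 cells under the wild-type label and 33 under the SCD label. The libraries are therefore named by their labels throughout, and any direction below is that between the labels. The F4/80 gene Adgre1 was at 400 and 305 CPM over all kept cells, and the macrophage-like classes made up 37.9% and 18.8% of them, so most cells of the enriched material were of other types. In what follows, the first of a pair of values is that of the library labelled wild-type and the second that of the library labelled SCD, and log2 ratios are SCD-labelled over wild-type-labelled.

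Cells were clustered without the chemokine and chemokine receptor genes, and clusters were named from marker genes alone. The classes were red pulp macrophage-like (RPM-like; 4725 and 1596 cells), macrophage-like with erythroid genes as in erythroblastic islands (EBI-like; 2632 and 715), Ly6c-high monocyte-like (1656 and 1963), Ly6c-low monocyte-like (419 and 961), mature DC-like (1233 and 896), type 2 conventional DC-like (cDC2-like; 465 and 792), T lymphocyte-like (65 and 93), B lymphocyte-like (1135 and 2367), erythroid-like (5083 and 395) and neutrophil-like (276 and 15), with 1729 and 2486 cells in clusters left unnamed. Different clusters held most of some classes in the 2 libraries. RPM-like cells were clusters 1 and 8 under the wild-type label against cluster 22 under the SCD label, EBI-like cells were clusters 3 and 14 against cluster 24, and Ly6c-high monocyte-like cells were mainly clusters 15 and 2 against cluster 7. Such a cluster may be a library rather than a cell type. The largest B lymphocyte-like cluster (756 and 1867 cells, median 2749 and 2957 UMIs) served as the reference for free RNA, since droplets hold RNA shed by other cells and B cells are not known as a source of most of these chemokines. Red pulp macrophage markers summed to 15867 and 5789 CPM in it. The sums were lower in T lymphocyte-like cells (6355 and 3102 CPM) and the unnamed cluster 13 (4245 and 2659 CPM). They were higher in erythroid-like cells (16751 and 7145 CPM). The reference may thus overstate free RNA, more so under the wild-type label, and subtracting it may remove too much.

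On the GRCm38 build with GENCODE M21 annotation, 7 of the 9 genes lie on chromosome 11 and 2 on chromosome 5. Ccl5, Ccl9, Ccl6, Ccl3 and Ccl4 are neighbours on chromosome 11, in the order Ccl5 (83525778 to 83530518, minus strand), Ccl9 (83572919 to 83578636, minus), Ccl6 (83587882 to 83593087, minus), Ccl3 (83647844 to 83649355, minus) and Ccl4 (83662584 to 83664683, plus). Ccl2 (82035571 to 82037453, plus) and Cxcl16 (70453983 to 70459984, minus) lie at lower coordinates of the same chromosome. Cxcl2 (90903871 to 90905938, plus) and Ccl24 (135569937 to 135573049, minus) are on chromosome 5. All 9 are protein-coding genes with 3 to 6 exons in the longest transcript. Ccl2 overlaps Gm17268, Ccl6 overlaps E230016K23Rik and Cxcl16 overlaps Zmynd15, in each case on the opposite strand.

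The promoters of 4 members are shown, since only these had an entry. Of these, Ccl3 and Cxcl2 were found in the same few cells, and Ccl6 and Ccl9 shared a source class. Each is the 250 bases before the RefSeq start on build GRCm38.p6, written 5′ to 3′ on the strand of the gene, and 4 of the 9 members were matched, with no entry for Ccl2, Ccl4, Ccl5, Ccl24 and Cxcl16. Capitals mark matches to motifs searched on both strands, which were the NF-kappa-B motif, the C/EBP letters TTGCNNAA, the AP-1 letters TGANTCA, the PU.1 letters GAGGAAG and the TATA box letters TATAAA. The windows were chr5:90903649-90903898 on the plus strand for Cxcl2, and chr11:83649379-83649628 for Ccl3, chr11:83578637-83578886 for Ccl9 and chr11:83593088-83593337 for Ccl6, all on the minus strand.
Cxcl2: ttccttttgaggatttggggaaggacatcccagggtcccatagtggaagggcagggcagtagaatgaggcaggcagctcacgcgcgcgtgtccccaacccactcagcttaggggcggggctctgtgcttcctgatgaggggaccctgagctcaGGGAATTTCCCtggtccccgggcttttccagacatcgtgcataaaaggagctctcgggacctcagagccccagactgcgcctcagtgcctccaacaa
Ccl3: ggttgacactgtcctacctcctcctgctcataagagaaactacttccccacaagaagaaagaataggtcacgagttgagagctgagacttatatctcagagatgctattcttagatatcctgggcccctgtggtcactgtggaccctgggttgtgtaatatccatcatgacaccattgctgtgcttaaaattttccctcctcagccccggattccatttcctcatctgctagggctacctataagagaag
Ccl9: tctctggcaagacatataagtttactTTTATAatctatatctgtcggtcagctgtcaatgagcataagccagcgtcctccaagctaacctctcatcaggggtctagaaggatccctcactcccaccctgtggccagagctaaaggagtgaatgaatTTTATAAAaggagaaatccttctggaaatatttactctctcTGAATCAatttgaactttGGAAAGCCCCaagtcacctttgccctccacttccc
Ccl6: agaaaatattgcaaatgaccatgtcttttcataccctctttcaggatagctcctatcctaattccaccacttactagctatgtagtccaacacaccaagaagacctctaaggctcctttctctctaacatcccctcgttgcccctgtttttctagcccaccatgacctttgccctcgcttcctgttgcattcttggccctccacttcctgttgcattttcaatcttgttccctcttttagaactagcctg

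Cxcl2 held the NF-kappa-B motif on both strands in overlapping letters, from base -97 to base -87 before the start. Ccl9 held it on the minus strand from -35 to -26, an AP-1 match from -53 to -47 and TATA box matches at 3 places, a pair of which overlap on opposite strands. No letters of any of the 5 motifs were found in the Ccl3 or Ccl6 windows. Of all 32851 promoters of this length, 7.25% held the NF-kappa-B motif, 9.56% the C/EBP letters, 6.75% the AP-1 letters, 10.6% the PU.1 letters and 12.4% the TATA box letters. Aligned base by base, the windows of Ccl6 and Ccl9 had 50 of 250 bases in common and those of Ccl3 and Cxcl2 had 61.

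The members differed widely in which cells held them, and the classes fell into a monocyte group, a DC group and a macrophage gene. Ccl6 and Ccl9 were highest in Ly6c-high monocyte-like cells, Ccl3, Ccl4 and Cxcl2 were high in Ly6c-low monocyte-like cells, Ccl5 and Cxcl16 were high in mature DC-like cells, and Ccl24 was highest in macrophage-like cells. For 7 of the 9 members the class with the highest level was the same in both libraries. The exceptions were Ccl3 and Ccl5, for which the small T lymphocyte-like class took first place in 1 library each. These levels are a description of source, since a class holds cells of 1 mouse per condition.

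**Figure D1:**
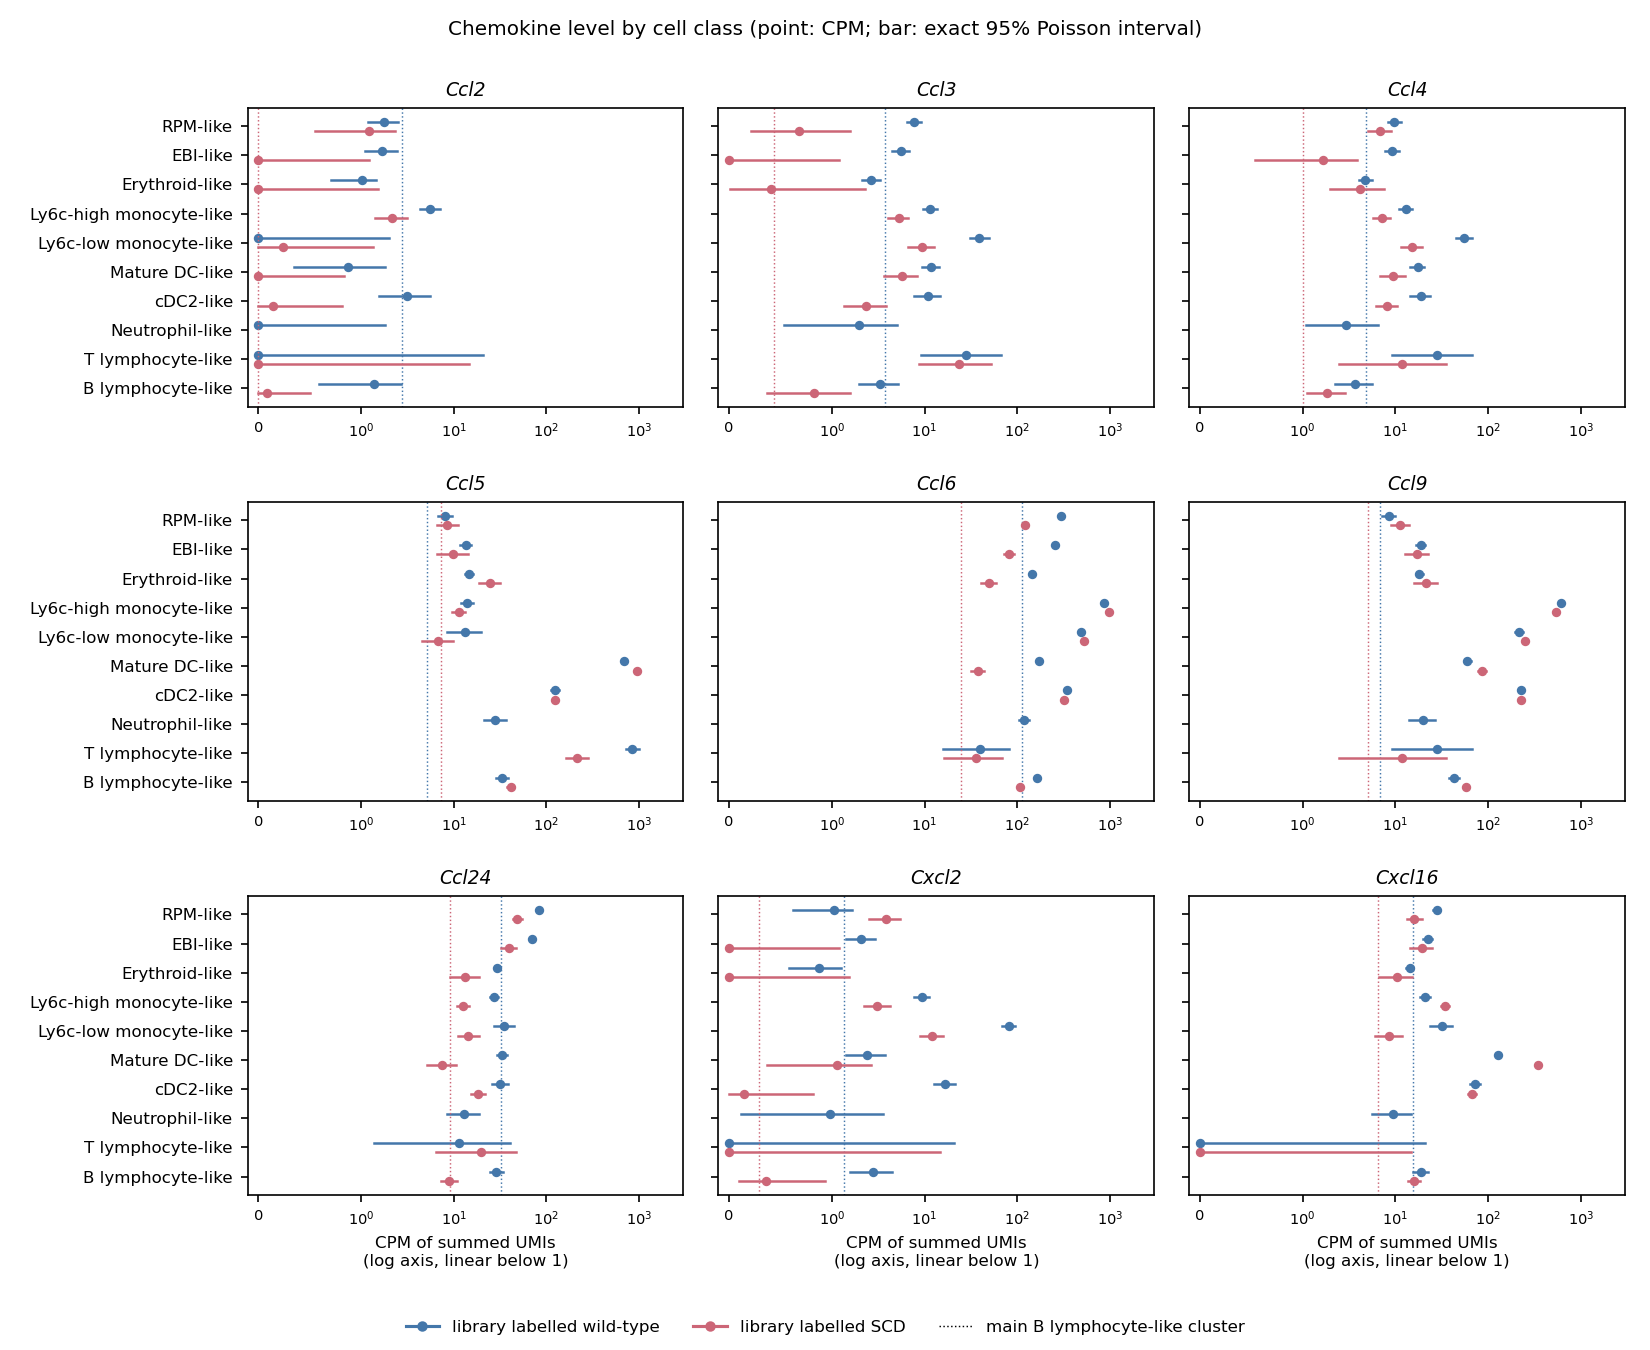
Level of each chemokine (CPM of summed UMIs, log axis that is linear below 1) in each cell class, with points for the 2 libraries, bars for exact 95% Poisson intervals and dotted lines for the B lymphocyte-like reference. Ccl6 and Ccl9 peak in Ly6c-high monocyte-like cells, at 860 and 961 CPM and at 614 and 543 CPM, and Ccl5 stands out in mature DC-like and T lymphocyte-like cells.

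Ccl6 and Ccl9, closely related CC chemokines of rodents that act mainly on Ccr1, were the most widely found members. Over all kept cells Ccl6 was at 283 and 309 CPM (log2 ratio 0.13, 0.10 to 0.15) and Ccl9 at 109 and 169 CPM (0.63, 0.59 to 0.67). In Ly6c-high monocyte-like cells Ccl6 was at 860 CPM (843 to 877) and 961 CPM (944 to 978), and Ccl9 at 614 CPM (600 to 629) and 543 CPM (530 to 556). This class held 62.4% and 64.4% of all Ccl9 UMIs, and 33.7% and 62.3% of all Ccl6 UMIs. The Ccl6 share moved with the macrophage-like classes, which gave 29.4% and 5.66% of Ccl6 UMIs.

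Below the Ly6c-high class, Ly6c-low monocyte-like cells held Ccl6 at 489 and 519 CPM and Ccl9 at 217 and 248 CPM, and cDC2-like cells held Ccl6 at 343 and 322 CPM and Ccl9 at 223 and 225 CPM. The cDC2-like level was that of cluster 16 (303 and 586 cells), with Ccl6 at 484 and 416 CPM and Ccl9 at 338 and 298 CPM, of whose cells 43.2% were taken as doublets. Cluster 18 (162 and 206 cells), the other cluster of the class and led by cell cycle genes such as Cep55, Iqgap3 and Pclaf, held Ccl6 at 89.6 and 54.5 CPM and Ccl9 at 16.7 and 15.9 CPM. For Ccl9 the intervals of these 2 classes overlapped in both libraries, so their order is not set. After thinning every cell to 1000 UMIs, 53% and 56.1% of Ly6c-high monocyte-like cells held a Ccl6 UMI, and 44.3% and 38% held a Ccl9 UMI, with 8 and 4 shallower cells left out. Without thinning the shares were 93.9% and 92.4% for Ccl6 and 90.1% and 82.8% for Ccl9, at median depths of 6263 and 6039 UMIs. In the B lymphocyte-like reference, thinned shares were 6.54% and 1.89% for Ccl6 and 0.534% and 0.433% for Ccl9. Ccl9 was thus far above the reference in monocyte-like cells, whereas Ccl6 had a reference level that was higher in the library labelled wild-type. The unnamed cluster 9, led by the granulocyte precursor genes Mpo, Elane and Prtn3 and almost absent from the library labelled SCD (206 and 6 cells), held Ccl9 at 558 and Ccl6 at 433 CPM in the library where it was found.

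In macrophage-like cells, Ccl6 was at 275 CPM (269 to 281) and 109 CPM (103 to 116), a log2 ratio of -1.33 (-1.42 to -1.24). It was lower in RPM-like cells (293 and 120 CPM) and in EBI-like cells (255 and 82.2 CPM) alike. Over the same cells, 23.3% and 9.74% had a Ccl6 UMI after thinning (52.2% and 30.7% without), with 799 and 156 cells left out. Free RNA moved in the same direction, since the main B lymphocyte-like cluster held Ccl6 at 111 and 24.8 CPM. With that level subtracted, the log2 ratio in macrophage-like cells was -0.96. Ccl9 in the same cells was at 13.3 and 13 CPM (-0.04, -0.33 to 0.24).

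Ccl24, an eotaxin that acts through Ccr3 on eosinophils and other cells, was the member most tied to macrophages. RPM-like cells held it at 82.4 CPM (78.1 to 86.8) and 48.6 CPM (43.7 to 54.0), and EBI-like cells at 69.7 and 39.4 CPM. The intervals of these 2 classes were apart under the wild-type label and overlapped under the SCD label. Together they held 53.5% and 43.2% of Ccl24 UMIs. Free RNA was at 32.3 and 9.18 CPM in the main B lymphocyte-like cluster. Levels near it were found in Ly6c-high monocyte-like cells, at 27.2 and 12.7 CPM, in mature DC-like cells, at 33.4 and 7.45 CPM, and in erythroid-like cells, at 29.5 and 13.2 CPM. Among sets that stood above it were the unnamed cluster 11, at 46.6 CPM (40.5 to 53.2) and 43.7 CPM (34.3 to 54.9), the erythroid-like cluster 12 under the wild-type label, at 53 CPM (46.5 to 60.2), and cDC2-like cells under the SCD label, at 18.2 CPM (15.2 to 21.8). Over macrophage-like cells the log2 ratio was -0.73 (-0.88 to -0.59), with 6.5% and 4.32% of cells holding a UMI after thinning (19.8% and 13.9% without) beside 2.27% and 0.649% in the B lymphocyte-like reference. With the free RNA level subtracted it was -0.26. One cDC2-like cell of the library labelled SCD alone held 83 of the 124 Ccl24 UMIs of its class and of the 1106 of that library. Most of the cDC2-like level under that label thus came from 1 cell. Its counting interval does not cover this, so that class cannot be said to stand above free RNA.

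Ccr3, the receptor of Ccl24 that is best known from eosinophils, had its highest level in the same RPM-like cells, at 1466 and 1149 CPM, with 1177 and 767 CPM in EBI-like cells. Its levels in B lymphocyte-like cells were 533 and 177 CPM. Ccr3 was at 1328 and 1037 CPM over macrophage-like cells and at 736 and 305 CPM over all kept cells. Ligand and receptor were thus both highest in the class with the most red pulp macrophage markers, which summed to 40763 and 34823 CPM over 10 genes.

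Ccl3, Ccl4 and Cxcl2 are inducible chemokines. Ccl3 and Ccl4 draw monocytes and lymphocytes, and Cxcl2 draws neutrophils through Cxcr2. All 3 were rare. Over all kept cells Ccl3 was at 6.42 and 2.65 CPM, Ccl4 at 9.22 and 6.49 CPM and Cxcl2 at 4.09 and 2.03 CPM, and UMIs were found in 419 and 81 cells, in 510 and 156 cells, and in 100 and 24 cells. Their highest or near-highest level was in Ly6c-low monocyte-like cells, the patrolling monocytes, which form cluster 6 in both libraries.

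Within Ly6c-low monocyte-like cells, Ccl3 was at 39.1 CPM (30.6 to 49.4) and 9.29 CPM (6.58 to 12.8), a log2 ratio of -2.07 (-2.68 to -1.49). Ccl4 was at 55.1 CPM (44.8 to 67.0) and 15.2 CPM (11.6 to 19.4), a log2 ratio of -1.86 (-2.34 to -1.39). Cxcl2 was at 80.5 CPM (67.9 to 94.6) and 12 CPM (8.87 to 15.8), a log2 ratio of -2.75 (-3.24 to -2.27). The 3 genes were lower in the library labelled SCD, while Ccl6 and Ccl9 in the same cells had log2 ratios of 0.08 (-0.03 to 0.20) and 0.19 (0.03 to 0.37). Counting intervals do not describe these differences well, because very few cells held the UMIs. The 146 Cxcl2 UMIs of the library labelled wild-type came from 17 of 419 cells, 84.9% of them from 5 cells, and the 49 of the library labelled SCD came from 4 of 961 cells, 43 of them from a single cell. For Ccl3, 32 and 15 cells held a UMI, and for Ccl4, 33 and 16 cells. After thinning, 2.91% and 0.632% of Ly6c-low monocyte-like cells held a Ccl3 UMI, 3.4% and 0.632% a Ccl4 UMI and 2.18% and 0.316% a Cxcl2 UMI, with 7 and 12 cells left out. Without thinning these shares were 7.64% and 1.56%, 7.88% and 1.66%, and 4.06% and 0.416%, at median depths of 3330 and 3475 UMIs, so the lower levels went with fewer positive cells. In the B lymphocyte-like reference, thinned shares were 0.401% and 0% for Ccl3, 0.134% and 0.162% for Ccl4 and 0% and 0.0541% for Cxcl2.

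The same cells tended to hold these genes together. Under the wild-type label, 11 of the 419 Ly6c-low monocyte-like cells held both Ccl3 and Cxcl2, where 1.3 cells would do so if detection were independent. Ccl3 and Ccl4 were found together in 8 cells (2.52 if independent) and Ccl4 and Cxcl2 in 6 cells (1.34 if independent). In the library labelled SCD the numbers were 1, 2 and 3 cells, where 0.0624, 0.25 and 0.0666 would be given by independence. Of the same wild-type-labelled cells, 148 held both Ccl6 and Ccl9, where 139 would be given by independence. Ccl6 was found in 285 and Ccl9 in 205 of the 419 cells, so a several-fold excess was not possible for this pair. It cannot be set against the rarer pairs. Depth is shared by all genes of a cell, and no test was made on these counts.

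Other inducible genes of Ly6c-low monocyte-like cells went both ways. A list of 15 immediate early genes, which respond to stimulation and to tissue dissociation, summed to 1730 and 2125 CPM in these cells, and a list of 18 NF-kappa-B response genes to 2754 and 2886 CPM. Abundant genes carry such sums, Nr4a1 alone standing at 489 and 718 CPM. Of the 12 immediate early genes with at least 100 UMIs, 3 were at least 2-fold lower in the library labelled SCD and 0 higher, with a median log2 ratio of 0.27. The 3 were Egr1 (70.5 and 9.29 CPM), Jun (113 and 52.1 CPM) and the heat shock gene Hspa1a (32 and 14.4 CPM), while Junb was at 306 and 389 CPM and Ier2 at 109 and 165 CPM. Of 16 NF-kappa-B response genes, 1 was lower, the cytokine gene Tnf (60.6 and 24.5 CPM), and 0 were higher, with a median of 0.14. Over all 6990 genes of these cells, 2.2% were lower and 2.29% higher. The part of dissociation in the chemokine levels was not tested.

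In macrophage-like cells Ccl3 was at 6.65 CPM (5.79 to 7.59) and 0.481 CPM (0.156 to 1.12), from 216 and 5 UMIs in 153 and 4 cells, a log2 ratio of -3.79 (-5.43 to -2.54). The reference for free RNA was at 3.78 and 0.437 CPM, so Ccl3 in macrophage-like cells of the library labelled SCD was near it. Both values rest on few counts, since the whole B lymphocyte-like class held 19 and 9 Ccl3 UMIs. Ccl4 was at 9.48 and 5.29 CPM (-0.84, -1.28 to -0.42), beside 4.81 and 1.02 CPM in the B lymphocyte-like reference. Cxcl2 in macrophage-like cells had 50 and 28 UMIs, below the 100 UMIs needed for a comparison, and 18 of the 28 came from 1 cell. Among Ly6c-high monocyte-like cells, Ccl3 was at 11.4 and 5.24 CPM and Cxcl2 at 9.42 and 3.08 CPM, but these UMIs sat in different clusters of the class. In cluster 2, where 44% of cells were taken as doublets, Ccl3 was at 22.4 and 1.14 CPM and Cxcl2 at 24 and 0 CPM, whereas in cluster 7 Ccl3 was at 3.89 and 6.39 CPM and Cxcl2 at 1.3 and 3.93 CPM. Without cluster 2, the class held 34 and 65 Ccl3 UMIs (log2 ratio 0.44, -0.18 to 1.08) and 3 and 40 Cxcl2 UMIs (3.24, 1.59 to 5.58), both below the minimum of 100. Of the 40 Cxcl2 UMIs, 26 were in 1 cell. Under the wild-type label, 1 cell of cluster 2 held 61 of the 136 Ccl3 UMIs of the whole class, and 1 cell of cluster 2 held 58 of its 112 Cxcl2 UMIs. The lower values under the SCD label in this class thus rest largely on single cells.

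Ccl2, the main ligand of Ccr2 and the chemokine that draws Ly6c-high monocytes out of the marrow, was close to the limit of detection. It had 198 and 40 UMIs over all kept cells, in 125 and 28 cells, which gives 1.85 and 0.616 CPM and a log2 ratio of -1.58 (-2.11 to -1.09). Its highest level was in Ly6c-high monocyte-like cells, at 5.55 CPM (4.29 to 7.06) and 2.16 CPM (1.43 to 3.12), with intervals that overlapped those of the next class in both libraries. The main B lymphocyte-like cluster held 2.75 and 0 CPM. Under the wild-type label the whole B lymphocyte-like class had only 8 Ccl2 UMIs, in 4 cells, with 4 of them in a single cell. With so small a reference, Ccl2 outside monocyte-like cells under the wild-type label could not be told from free RNA. In EBI-like cells of the library labelled SCD no Ccl2 UMI was found, which allows up to 3 UMIs in 3042403. Ccr2 itself was well detected, at 2119 and 1416 CPM in Ly6c-high monocyte-like cells, where it is a marker of the class, and at 337 and 373 CPM over all kept cells.

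**Figure D2:**
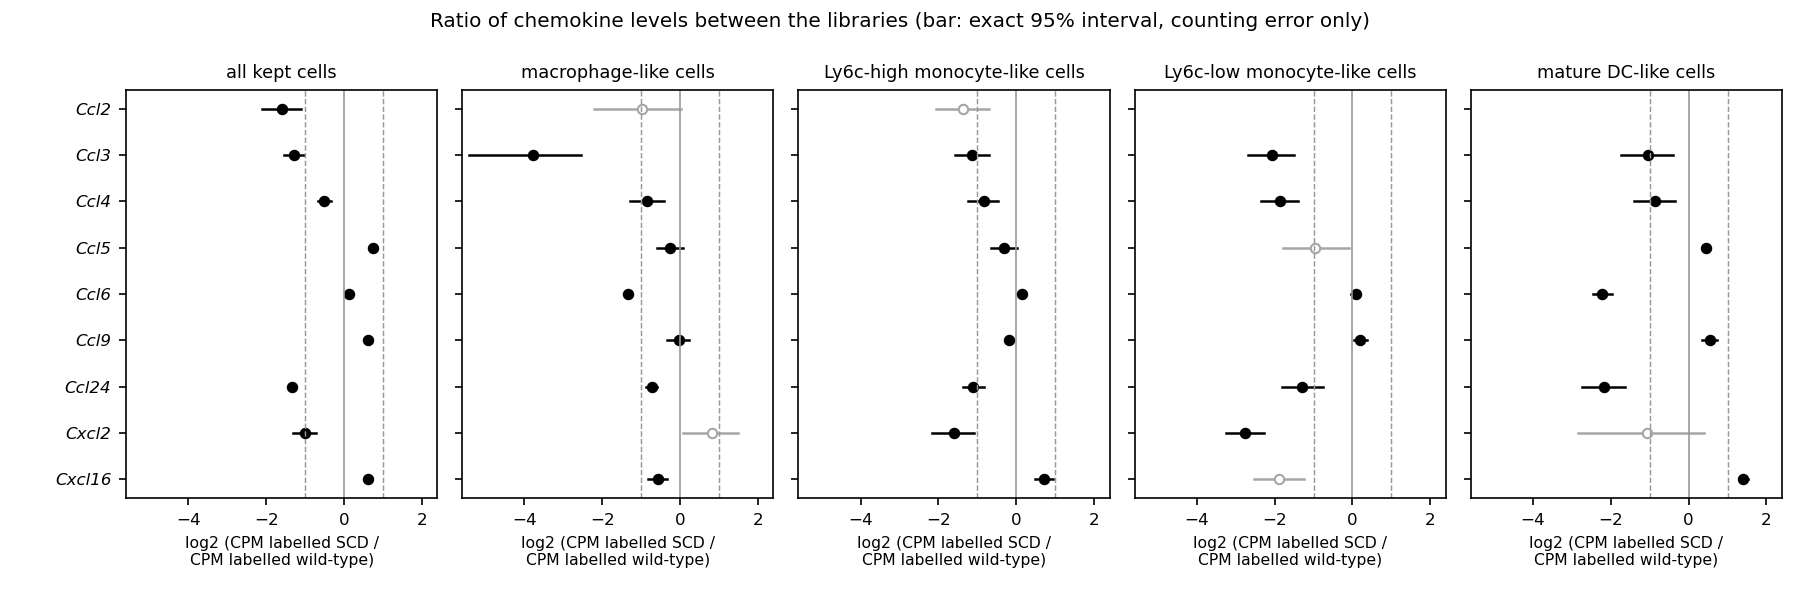
Log2 ratio of each chemokine between the library labelled SCD and the library labelled wild-type, in all kept cells and in the classes described, with exact 95% intervals for counting error only, filled points where both libraries together held at least 100 UMIs and dashed lines at 2-fold. Ccl3, Ccl4 and Cxcl2 lie left of the 2-fold line in Ly6c-low monocyte-like cells, at -2.07, -1.86 and -2.75, and Cxcl16 lies right of it in mature DC-like cells, at 1.41.

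Ccl5, a ligand of Ccr1 and Ccr3 made by cytotoxic lymphocytes and activated DCs, was held mainly by mature DC-like cells, at 693 CPM (675 to 712) and 950 CPM (921 to 979). That class held 60.8% and 45.5% of all Ccl5 UMIs. The unnamed cluster 13, led by Six3, Gpr82 and Ffar2, held a further 9.41% and 33.7%, at 312 and 289 CPM in 808 and 2254 cells. Its candidate class was cDC2, with 7 of 10 markers, and its UMIs are not counted in the cDC2-like class. Over all kept cells Ccl5 was at 84.8 and 142 CPM (log2 ratio 0.75, 0.70 to 0.79). The mature DC-like class was made of cluster 19 (441 and 660 cells), which held most of its defining genes such as Fscn1 and Cacnb3, and cluster 4 (792 and 236 cells), of which 43.7% were taken as doublets. In cluster 19 Ccl5 was at 1921 CPM (1859 to 1984) and 1302 CPM (1261 to 1345), a log2 ratio of -0.56 (-0.63 to -0.49), and in cluster 4 it was at 302 and 317 CPM (0.07, -0.08 to 0.21). The class as a whole was thus higher in the library labelled SCD, at 0.45 (0.40 to 0.51), although neither of its clusters was higher beyond counting error. After thinning, 34.1% and 43.5% of mature DC-like cells and 60.7% and 51.8% of cluster 19 cells held a Ccl5 UMI (61.3% and 72.8%, and 81.6% and 78.5%, without thinning), beside 0.534% and 0.595% in the B lymphocyte-like reference.

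T lymphocyte-like cells held Ccl5 at 844 CPM (714 to 991) and 215 CPM (161 to 280), a log2 ratio of -1.98 (-2.45 to -1.52), from 17 of 65 and 18 of 93 cells. Markers of natural killer (NK) cells, which also make Ccl5, moved with it, at 1433 and 878 CPM summed over 10 genes, 9 of which were lower in the library labelled SCD. T lymphocyte markers summed over 8 genes were at 1620 and 2225 CPM. The part of NK cells in the Ccl5 level was not tested. Macrophage-like cells held little Ccl5, at 10.6 and 8.94 CPM, beside 5.15 and 7.29 CPM in the B lymphocyte-like reference.

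Cxcl16, a chemokine anchored in the cell membrane that binds Cxcr6 on T and NKT cells, was highest in mature DC-like cells, at 129 CPM (121 to 137) and 342 CPM (325 to 360), a log2 ratio of 1.41 (1.29 to 1.52). It was the only member at least 2-fold higher in the library labelled SCD in any of the 5 sets of cells compared. Cluster by cluster the difference was smaller, at 323 and 491 CPM in cluster 19 (0.60, 0.47 to 0.74) and at 67.1 and 75.1 CPM in cluster 4 (0.16, -0.14 to 0.46). Cluster 19 made up more of the class in the library labelled SCD, and it was the richer of both clusters in Cxcl16. After thinning, 14% and 27.4% of the class and 29% and 34.7% of cluster 19 held a Cxcl16 UMI (34.5% and 49.6%, and 54.6% and 62%, without thinning), beside 1.34% and 0.649% in the B lymphocyte-like reference. Ccr7, the receptor that leads mature DCs to T cell zones and a marker of the class, was at 32.4 and 84.7 CPM over all kept cells.

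In cDC2-like cells Cxcl16 was second, at 72.2 and 67 CPM (-0.11, -0.33 to 0.12). Over all kept cells it was at 29.6 and 45.4 CPM (0.62, 0.54 to 0.69). In macrophage-like cells it was at 25.2 CPM (23.5 to 27.0) and 16.9 CPM (14.5 to 19.6), a log2 ratio of -0.58 (-0.82 to -0.34), with 15.5 and 6.56 CPM as the level of free RNA. In Ly6c-low monocyte-like cells it had 57 and 35 UMIs, which missed the minimum of 100. Of the few Cxcr6 UMIs, 18 of 35 and 39 of 51 were in T lymphocyte-like cells.

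**Figure D3:**
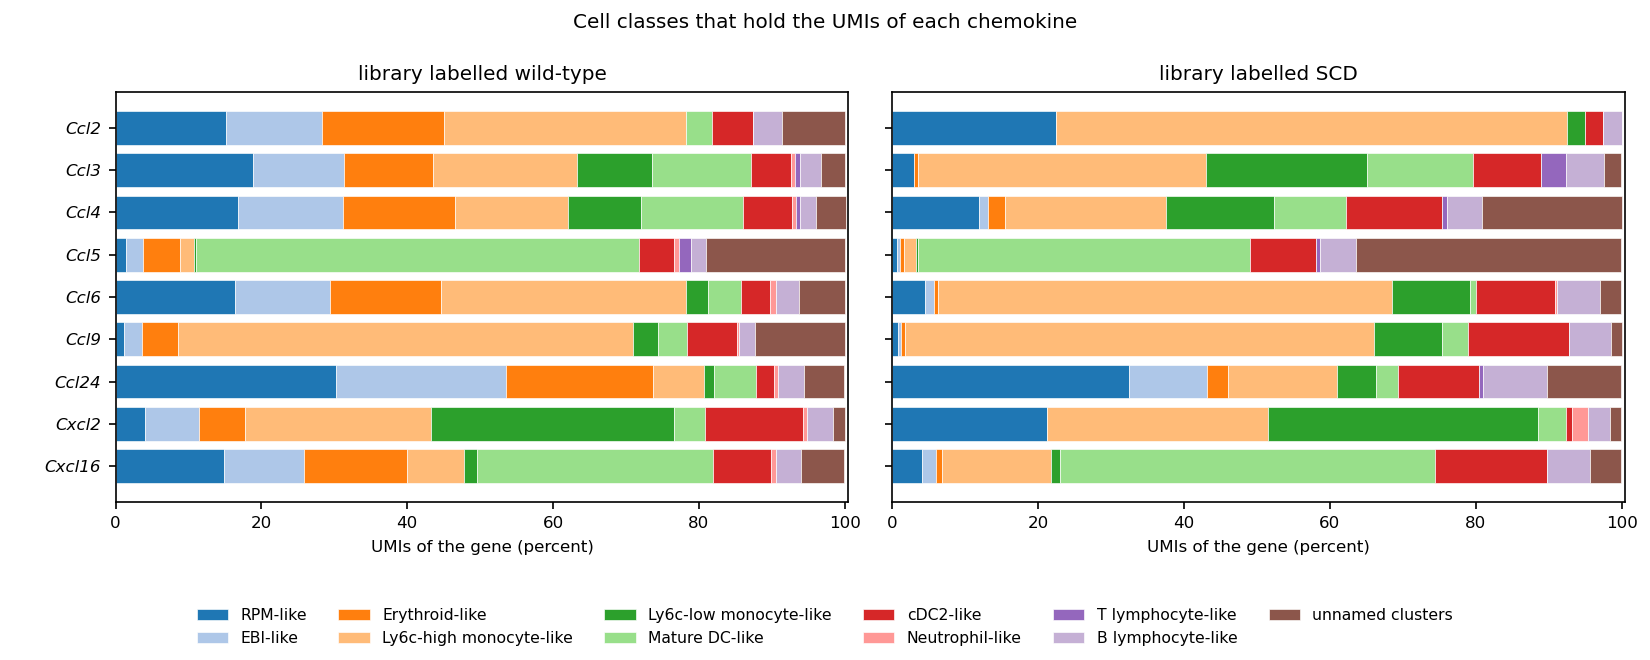
Percent of each chemokine's UMIs held by each cell class, in the library labelled wild-type on the left and the library labelled SCD on the right. Mature DC-like cells hold 60.8% and 45.5% of Ccl5 and Ly6c-high monocyte-like cells 62.4% and 64.4% of Ccl9, while the Ccl6 share of Ly6c-high monocyte-like cells goes from 33.7% to 62.3%.

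Between the libraries, a gene was counted as past the fold when its CPM differed at least 2-fold and both libraries together held at least 100 UMIs, with no test behind it. A gene can pass this minimum through 1 library alone, more easily through the one with more UMIs in that set of cells. Ccl2 over all kept cells (198 and 40 UMIs) and Ccl3 in macrophage-like cells passed it through the library labelled wild-type. The same rule was used for all genes. Over all kept cells, where all 9 members passed the UMI minimum, 4 were at least 2-fold lower in the library labelled SCD (Ccl2, Ccl3, Ccl24 and Cxcl2), beside 9.78% of all 13015 genes, and 0 were at least 2-fold higher, beside 12% of all genes. The median log2 ratio was -0.51 over the members and 0.18 over all genes. In sums over cells, fewer cells of a type and less RNA per cell cannot be told apart. Of macrophage-like cells, 7 members passed the minimum, of which 2 (Ccl3 and Ccl6) were lower, beside 6.44% of 10847 genes, and 0 higher, beside 7.62%. The median was -0.73 beside 0.13 over all genes. Each of the 7 had a ratio below 0, beside 4343 of the 10847 genes. The ratio of Ccl9 was -0.04, with an interval of -0.33 to 0.24. With free RNA subtracted, Ccl9 came to 0.29 and Cxcl16 to 0.08 in these cells. Ccl4, Ccl5, Ccl6 and Ccl24 stayed below 0, and Ccl3 had no ratio.

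Among Ly6c-low monocyte-like cells, 4 of the 6 members with enough UMIs (Ccl3, Ccl4, Ccl24 and Cxcl2) were at least 2-fold lower, beside 2.2% of 6990 genes, and 0 were higher, beside 2.29%, with a median of -1.58 beside 0.09. Ccl24 was hardly above free RNA there, at 35.3 and 14.4 CPM beside 32.3 and 9.18 CPM, and with free RNA subtracted its direction turned, from -1.29 to 0.81, while Ccl3, Ccl4 and Cxcl2 stayed at -2.00, -1.83 and -2.76. Among Ly6c-high monocyte-like cells, 3 of 8 (Ccl3, Ccl24 and Cxcl2) were lower, beside 4.68% of 9860 genes, and 0 were higher, beside 2.49%, with a median of -0.58 beside 0.04. None of these 3 was still past the fold under both alternatives tried in this class. Ccl3 went to -0.67 with free RNA subtracted, Ccl24 under the wild-type label was below free RNA (27.2 beside 32.3 CPM), and Cxcl2 fell below 100 UMIs without cluster 2. In mature DC-like cells, 3 of 7 (Ccl3, Ccl6 and Ccl24) were lower, beside 9.17% of 9019 genes, and 1 (Cxcl16) was higher, beside 4.99%, with a median of -0.87 beside -0.03. With free RNA subtracted, Ccl6 was still lower there (-2.33), Ccl3 was at -0.60, and Ccl24 under the SCD label was below free RNA. Over all kept cells the same subtraction left 0 members at least 2-fold lower and 1 (Cxcl16, at 1.46) higher. Ccl2, which was at 1.85 CPM beside 2.75 CPM of the reference under the wild-type label, had no ratio. Where the reference overstates free RNA more under the wild-type label, ratios after subtraction are shifted upward. In macrophage-like cells neither member was past the fold any longer, since Ccl6 was at -0.96 and Ccl3 under the SCD label was at the free RNA level, and Ccl5 (10.6 and 8.94 CPM) came to -1.73.

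**Figure D4:**
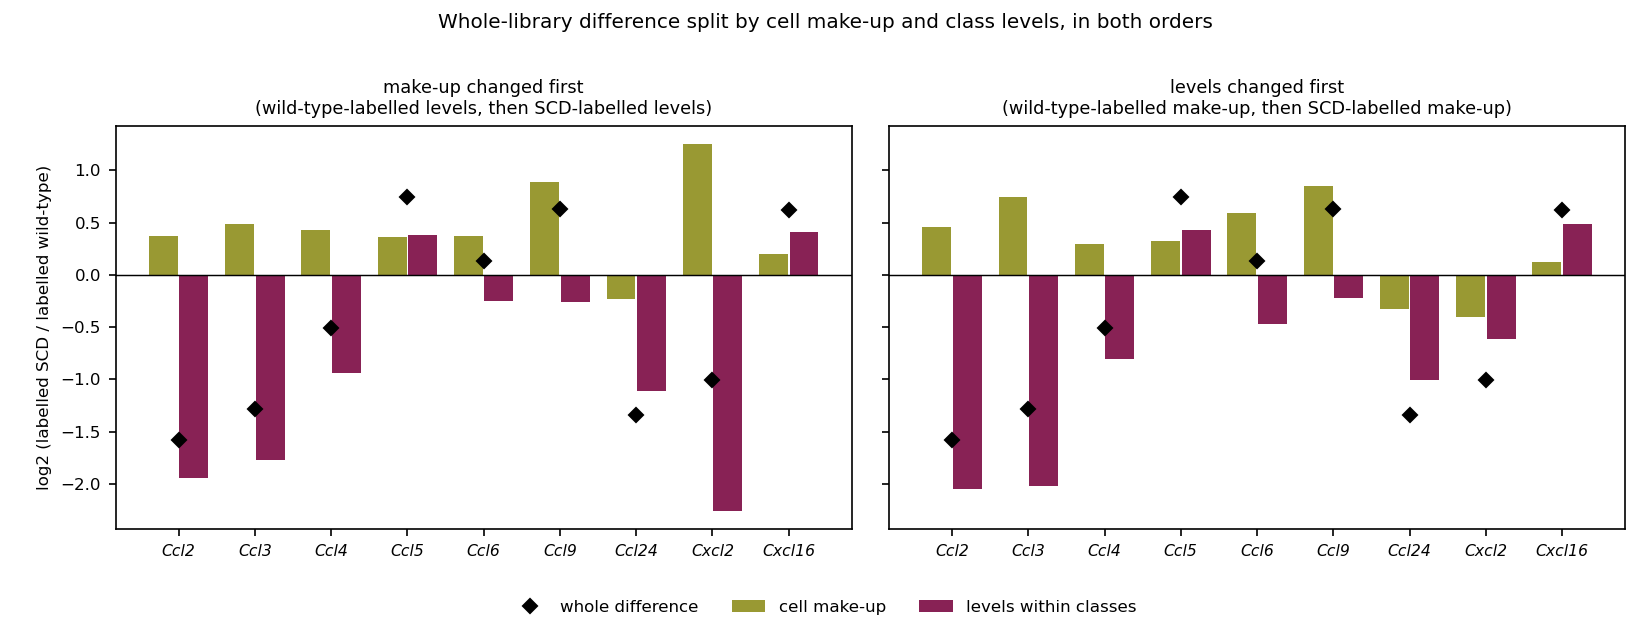
Whole-library log2 ratio of each chemokine (diamonds, labelled SCD over labelled wild-type) and its parts that go with the cell make-up and with the levels inside classes (bars), with the make-up changed first on the left and the levels changed first on the right. The make-up part of Cxcl2 is 1.25 on the left and -0.40 on the right, while the parts of the other members keep their sign.

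The change in cell make-up and the change in level pulled in opposite directions for Ccl2, Ccl3, Ccl4, Ccl6 and Ccl9 in both orders in which the split can be made. When the levels of the library labelled wild-type were combined with the class shares of the library labelled SCD, Cxcl2 came to 9.72 CPM in place of 4.09, Ccl9 to 202 in place of 109, and Ccl24 to 36.9 in place of 43.2. In the other order, the levels of the library labelled SCD in the class shares of the library labelled wild-type gave 2.68 CPM of Cxcl2, above the 2.03 CPM found, 93.5 CPM of Ccl9 in place of 169, and 21.5 CPM of Ccl24 in place of 17. The part of make-up in Cxcl2 thus had no set direction, at 1.25 in the first order and -0.40 in the other. Monocyte-like cells, the main holders of Cxcl2 and Ccl9, were 8.53% and 16% of cells for the Ly6c-high and 2.16% and 7.83% for the Ly6c-low class. Ccl9 was thus higher over all kept cells (0.63) with a make-up part of 0.89 and a level part of -0.26 (0.85 and -0.22 in the other order). Ccl6 had a make-up part of 0.37 and a level part of -0.25 (0.59 and -0.47). For Ccl5 both parts were above 0, at 0.36 and 0.38 (0.32 and 0.43), and for Cxcl16 they were 0.20 and 0.41 (0.12 and 0.49). The level part was taken over whole classes, so it also holds shifts between the clusters of a class. In mature DC-like cells the log2 ratio of Ccl5 was 0.45, beside -0.56 in cluster 19 and 0.07 in cluster 4. Over unnamed cells it was 0.60, beside -0.11 in cluster 13 and -0.10 in cluster 11. Ccl5 was not higher beyond counting error in any of these clusters. The part of such shifts was not tested. Class shares depend on the bead enrichment as well as on the spleen, and their parts cannot be told apart.

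**Figure D5:**
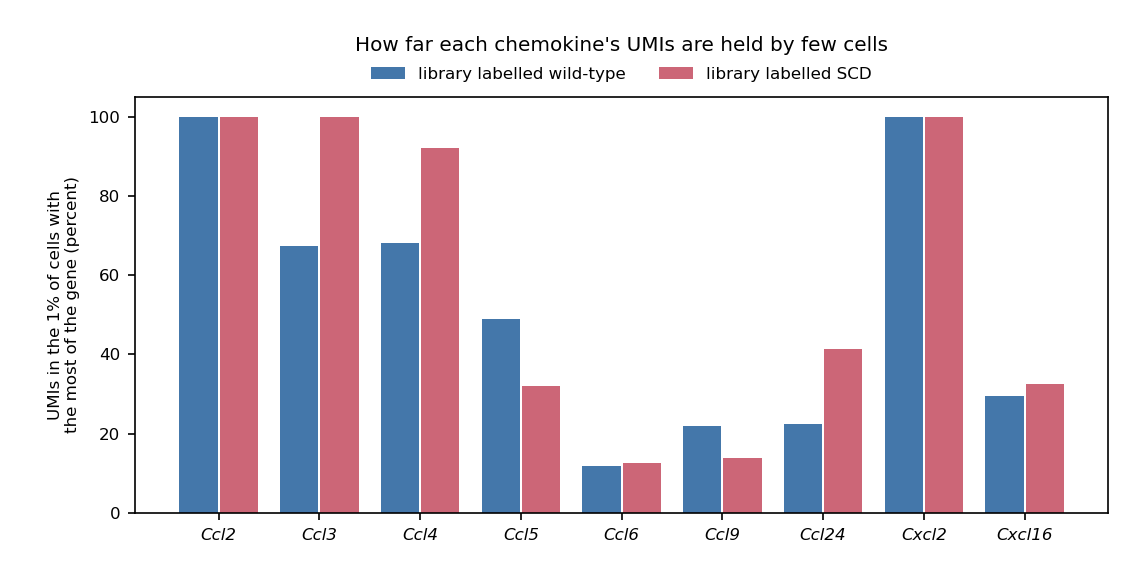
Percent of each chemokine's UMIs that sits in the 1% of cells with the most UMIs of it, by library. Ccl2 and Cxcl2 reach 100% in both libraries and Ccl3 67.5% and 100%, while Ccl6 stays at 11.9% and 12.7%.

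How evenly cells shared a chemokine set the members apart as well. The 1% of cells with the most UMIs of a gene held all UMIs of Ccl2 and Cxcl2 in both libraries, since fewer than 1% of cells had any, and held 67.5% and 100% of Ccl3 and 68.1% and 92.2% of Ccl4. The same share was 11.9% and 12.7% for Ccl6, 21.9% and 13.8% for Ccl9, 22.5% and 41.3% for Ccl24, 29.4% and 32.5% for Cxcl16, and 49% and 32.1% for Ccl5. A single cell held up to 58 and 43 UMIs of Cxcl2, and up to 176 and 46 UMIs of Ccl6. Ccl6, Ccl9 and Cxcl16 were thus spread over many cells, and the inducible genes were held by few.

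The thinned share of cells with a UMI gave the direction at 1 depth for all kept cells, with 1032 and 281 shallower cells left out. At least 2-fold lower shares in the library labelled SCD were found for Ccl3 (0.533% and 0.167%, or 2.16% and 0.66% without thinning) and Ccl24 (3.73% and 1.49%, or 14.8% and 5.82% without thinning), and no member had a 2-fold higher share. Only the members were thinned, so no value over all genes stands beside this count. The shares were not corrected for free RNA. Ccl5 was found in 4.84% and 8.93% of cells, Ccl9 in 6.71% and 10.6%, Ccl6 in 20.2% and 17.7% and Cxcl16 in 2.96% and 3.67%.

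The genes whose levels followed the members most closely over 40 points, the clusters of each library with at least 50 cells, were named by the highest Pearson correlation among 12993 genes. They were Msr1 (r = 0.95) and Lgals3 (0.94) for Ccl6, Galnt9 (0.91) and Plcb1 (0.90) for Ccl9, Tmem150c (0.94) and 1110032F04Rik (0.92) for Ccl5, Timp2 (0.94) and Tmem65 (0.93) for Ccl24, and Pgap2 (0.87) and Col27a1 (0.83) for Cxcl16. The rarer members had lower values, with Lilr4b and Syap1 at 0.70 for Ccl3, Ccl3 at 0.67 and Syap1 at 0.59 for Ccl4, Fam20a at 0.74 and Acod1 at 0.73 for Cxcl2, and Lrpap1 at 0.75 and Lgals3 at 0.72 for Ccl2. Among the members themselves the highest values were 0.71 for Ccl6 with Ccl9 and 0.67 for Ccl3 with Ccl4. The points share 2 libraries and their depth, and the values are descriptions.

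The other genes of the chemokine system were taken from a list of 51 ligands and receptors. Of these, 48 had 1 row and 26 had at least 100 UMIs over all kept cells, of which 12 were at least 2-fold higher and 4 at least 2-fold lower in the library labelled SCD, beside 12% and 9.78% of all genes, with a median log2 ratio of 0.48. Higher were the interferon-inducible ligands Cxcl9 (10.1 and 32.1 CPM), Cxcl10 (5 and 20.7 CPM) and Cxcl11 (0.391 and 3.13 CPM), the ligands Ccl22 (0.708 and 2.85 CPM) and Cxcl13 (0.485 and 1.02 CPM), and the receptors Cx3cr1, a marker of Ly6c-low monocytes (103 and 233 CPM), Ccr7, Ccr6, Ccr9, Cxcr5, Ackr2 and Ackr3. B lymphocyte-like cells, which rose from 5.85% to 19.3% of cells, held 85.6% and 94.6% of Cxcr5 UMIs, 59.7% and 86.6% of Ackr3 UMIs and 100% and 92.7% of Ackr2 UMIs, and within them the log2 ratios were 0.64, 0.42 and 0.60. Lower were the monocyte-drawing ligands Ccl8 (5.69 and 0.0308 CPM) and Ccl12 (0.988 and 0.108 CPM), the platelet chemokine Pf4 (3.98 and 1.91 CPM) and the receptor Ccr3. Cxcl9 and Cxcl10 were also higher within macrophage-like cells, at 10.7 and 45.3 CPM and at 3.85 and 42.7 CPM. Ccl8 there was at 8.83 and 0.0961 CPM, from 287 and 1 UMIs, and B lymphocyte-like cells held it at 5.88 and 0 CPM. Macrophage-like cells therefore held Cxcl9 and Cxcl10 at a higher level in the library labelled SCD, in which their Ccl3 and Ccl6 were at a lower one.

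Of the 9 receptors listed for the members, 7 had at least 100 UMIs over all kept cells, of which 1 (Ackr2) was at least 2-fold higher and 1 (Ccr3) at least 2-fold lower. Ccr1, the receptor of Ccl6 and Ccl9 and one of those of Ccl3 and Ccl5, was at 12.2 and 6.9 CPM, and in Ly6c-high monocyte-like cells, where Ccl6 and Ccl9 peak, at 48.4 and 8.86 CPM. Cxcr2, the receptor of Cxcl2, was at 4.14 and 2.28 CPM. Of its 444 UMIs in the library labelled wild-type, 337 came from the 276 neutrophil-like cells, a class of which it is a marker. The library labelled SCD held 15 such cells. The atypical receptors, which take up chemokines without signalling for migration, were Ackr1 at 17.6 and 10 CPM, Ackr2 at 0.289 and 1.48 CPM, and Ackr4 with 2 and 1 UMIs. Erythroid-like cells held Ackr1 at 44.7 and 39.6 CPM. They held most of its UMIs under the wild-type label but not under the SCD label. Ackr2 was found in B lymphocyte-like cells (5.36 and 8.14 CPM).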

How the data were processed

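The data were 2 droplet single-cell libraries (3′ chemistry, version 3.1 kit) of spleen cells enriched with F4/80 beads, 1 per condition. Per the labels and the submitters' processing notes, reads were processed with Cell Ranger 4.0.0 on GRCm38.p6, while the headers of the deposited matrices name software version 3.1.0. The deposited files hold raw, unnormalized UMI counts of each gene in each barcode, 145953464 and 73986356 UMIs in all. No comparison columns were present and no sample was left out.

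Barcodes were kept if they held 500 to 5000 genes, less than 15% of UMIs from mitochondrial genes and less than 30% from ribosomal-protein genes. These filtered cells outnumber those the study states. Counts were scaled with scran 1.30.0 (R 4.3.3). The 2000 most variable genes, without the members, the other chemokine and receptor genes, hemoglobin and sex-linked genes and 7 genes of heme and iron metabolism, were reduced to 30 principal components, and a 15-neighbour graph of these was clustered by the Leiden algorithm at resolution 1 with scanpy 1.11.5 and python-igraph 0.11.9 under Python 3.11.15. A cluster was named where at least 3 markers of a list were found in at least 10% of its cells and stood at least 2 times above the remaining cells, with macrophage and erythroid markers also at least 2 times above the main B lymphocyte-like cluster. These limits were chosen once a first clustering was known, and clusters 9, 11 and 13, which had more granulocyte-monocyte progenitor markers than markers of their own candidate class among the 10 leading genes, stayed unnamed. The candidate class of clusters 11 and 13 was cDC2, and Kit was the only progenitor marker among their leading genes. Cluster 11 met 4 and cluster 13 met 7 of the 10 cDC2 markers, beside 5 in cluster 16 and 7 in cluster 18, which were named cDC2-like. Scrublet's own threshold marked 0 cells of the library labelled wild-type, so the highest-scoring cells, up to 10%, were taken there (1894 cells) beside 1712 marked in the library labelled SCD, and doublets were left in.

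Counts were summed per set of cells and divided by the total of the set (CPM). Exact Poisson, conditional binomial and Clopper-Pearson intervals were computed with scipy 1.17.1 at 95%, and a share of 0 was read with the 3 counts that a count of 0 allows. Shares were computed after thinning each cell to 1000 UMIs. The sum for the make-up part combined class levels of the library labelled wild-type and class shares of the library labelled SCD, and the reverse in the other order. With 1 library per condition no test was run, and the genes past 2-fold with at least 100 UMIs are a rule of size. The 2-fold rule and the Poisson and ratio intervals were tested on simulated Poisson counts. Such counts do not hold the crowding of UMIs in few cells, and the other steps were not tested in this way. The members and all lists were chosen with earlier results of these data known. Named genes were the members, listed chemokine and receptor genes past 2-fold, the receptors of the members (1 is not reported here), the 2 genes nearest to each member in log2(CPM + 1) over clusters, markers, leading genes of clusters, and Hbb-bs and Hbb-bt. Adgre1 and the immediate early genes named were chosen after their values were seen. Alternatives changed the scaling, cell filter, doublets, clustering, thinning depth, UMI minimum and fold. Those for Ly6c-low and Ly6c-high monocyte-like and mature DC-like cells, the one without clusters holding erythroid markers and the other order of the split were chosen after seeing the data.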

Additional observations from a re-analysis of the deposited data

Results flagged for a closer look

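Ccl4 was at least 2-fold higher in the library labelled SCD in 1 cluster and at least 2-fold lower in 4 others, and this difference between clusters was not tested. In the unnamed cluster 11, Ccl4 was at 7.36 and 39.6 CPM (log2 ratio 2.43, 1.81 to 3.07). The log2 ratio there exceeded that of cluster 2 (Ly6c-high monocyte-like) by 5.06, of cluster 4 (mature DC-like) by 4.79, of cluster 6 (Ly6c-low monocyte-like) by 4.29 and of cluster 16 (cDC2-like) by 3.46. The 67 Ccl4 UMIs of cluster 11 in the library labelled SCD came from 9 of 226 cells, up to 29 from a single cell, and 68.1% of those 226 cells were taken as doublets, against 15.9% of the 715 cells in the library labelled wild-type. After thinning, 0.569% and 2.69% of its cells held a Ccl4 UMI. The part of doublets was not tested.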

How the results depend on the processing

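With 1 library per condition, counting error is known and the spread between mice is not, and counts of members past the fold rest on few UMIs for Ccl2, Ccl3, Ccl4 and Cxcl2. Of the summary results under the alternatives tried, 96 stayed within 1.5 times of the value reported, 9 were larger and 13 smaller. Of the values of single members, 208 moved by no more than counting error, 96 moved further and 5 were counted as turned in direction. A ratio was counted as turned only where the reported value was at least 2-fold, so sign changes of smaller ratios are among the 208 and 96. Ccl4 over all kept cells, reported at -0.51, reached 0.31. Ccl5 in mature DC-like cells, reported at 0.45, reached -0.56. With free RNA subtracted, no ratio was formed where a library was left with 3 counts or less. Members at least 2-fold lower then went from 4 to 0 over all kept cells, from 2 to 1 in macrophage-like cells and from 3 to 1 in mature DC-like cells, those higher went from 0 to 1 over all kept cells and in Ly6c-high monocyte-like cells, and Ccl24 in Ly6c-low monocyte-like cells turned to 0.81. Leaving out the 1% of cells with the most UMIs of each gene gave 1 member higher over all kept cells, 0 members lower in Ly6c-low monocyte-like cells (fewer than 100 UMIs were left for the inducible genes), and the same highest class in both libraries for 4 in place of 7 members. A 1.5-fold limit gave 3 members higher over all kept cells and 4 lower in macrophage-like cells. Without the cluster with most doublets, 1 member was lower and 0 higher in mature DC-like cells (Cxcl2 at 0.18, from 3 and 5 UMIs), and 1 was lower in Ly6c-high monocyte-like cells (Ccl3 at 0.44, Cxcl2 at 3.24). With the order of the split by make-up and levels changed, the make-up part of Cxcl2 was -0.40. Thinning to 2000 UMIs, or none, gave 5 in place of 2 members with a 2-fold lower share. Of the other chemokine and receptor genes over all kept cells, 8 in place of 4 were lower with median-of-ratios size factors and 2 with doublets left out, and 6 in place of 12 were higher without the top 1% of cells and likewise with free RNA subtracted. In macrophage-like cells 1 in place of 4 was lower without the top 1% of cells and 0 with free RNA subtracted, and 5 in place of 2 were higher with a minimum of 20 UMIs. The causes were not tested. No paired analysis was possible because the groups share 1 replicate number only.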
